A study of Mus musculus with 10 samples.

Results

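Transcripts of platelets and of megakaryocytes, the marrow and lung cells that shed platelets, were followed in whole mouse lung through 9 genes, namely Ppbp, Pf4, Treml1, Gp1ba, Gp1bb, Gp9, Itga2b, Itgb3 and Tubb1. The genes were chosen by name as widely used platelet markers, with earlier results of these data known. They were found by matching the Entrez identifiers of the count tables to RefSeq symbols on GRCm38.p6. All 9 were among the 19204 genes with a value in at least 1 library. All 9 also passed the filter on low counts, which left 14766 genes to test.

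The 10 lung libraries fall, by their titles, into 3 named C, 4 named Hy and 3 named HE. The series title names wild type, pulmonary hypertension that hypoxia induces, and the same disease with aerobic exercise, but no label ties a prefix to a condition, so the prefixes are kept as names. The genotype label was WT and the tissue label lung in every library, the treatment label was also identical throughout, and age, sex, oxygen level and exercise schedule were not given in the sources used here. Whether each library is a separate animal is not stated, and the p-values then cover only library-to-library spread, which may be technical. No transgene, deletion or drug is named for any group.

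Platelets have no nucleus and carry RNA inherited from the megakaryocyte, so their transcripts in a lung extract come from circulating or trapped platelets and from megakaryocytes resident in the lung. The 9 genes cover 4 parts of platelet function. Ppbp and Pf4 encode chemokines stored in alpha granules. Gp1ba, Gp1bb and Gp9 encode subunits of the receptor that catches von Willebrand factor on a damaged vessel wall. Itga2b and Itgb3 encode the chains of the fibrinogen receptor that links platelets in an aggregate, Treml1 encodes a receptor that alpha granules bring to the surface on activation, and Tubb1 encodes the beta tubulin of the ring that keeps the platelet flat. In a bulk extract, fewer platelets and less RNA per platelet cannot be told apart.

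Sequences around an annotated start were available for 8 of the 9 genes in RefSeq's table on GRCm38.p6, each window running from 250 bases before to 50 bases after that start, and no window was at hand for Itgb3. The start used for Gp9 lies 1939 bases inside the gene as annotated from its outermost start, so its window is within the gene. The windows of the neighbouring granule genes and of the von Willebrand factor receptor genes Gp1ba and Gp9 are shown. GATA, ETS and RUNX factors are known regulators of megakaryocyte genes. Capitals mark GATAA (GATA factors), GGAAG (ETS factors) and TGTGGT (RUNX factors) on either strand; a motif on the opposite strand appears as its reverse complement.
Ppbp, chr5:90768268-90768567, plus strand: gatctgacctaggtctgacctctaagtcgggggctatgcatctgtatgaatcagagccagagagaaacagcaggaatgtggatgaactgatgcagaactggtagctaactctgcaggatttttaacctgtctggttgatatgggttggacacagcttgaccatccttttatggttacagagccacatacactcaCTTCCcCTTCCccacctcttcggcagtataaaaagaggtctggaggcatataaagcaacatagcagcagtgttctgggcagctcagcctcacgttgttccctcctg
Pf4, chr5:90772185-90772484, plus strand: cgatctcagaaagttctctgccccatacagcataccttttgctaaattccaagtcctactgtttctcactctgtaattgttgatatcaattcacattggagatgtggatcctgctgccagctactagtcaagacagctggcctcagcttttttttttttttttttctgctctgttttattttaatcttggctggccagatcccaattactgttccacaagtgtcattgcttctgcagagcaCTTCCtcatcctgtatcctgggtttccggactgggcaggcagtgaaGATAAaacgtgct
Gp1ba, chr11:70638872-70639171, plus strand: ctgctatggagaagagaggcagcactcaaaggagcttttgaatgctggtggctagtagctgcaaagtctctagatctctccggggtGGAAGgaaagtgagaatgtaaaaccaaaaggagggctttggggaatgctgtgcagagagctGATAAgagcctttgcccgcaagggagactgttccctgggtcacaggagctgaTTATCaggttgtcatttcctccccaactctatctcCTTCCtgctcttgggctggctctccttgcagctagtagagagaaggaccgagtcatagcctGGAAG
Gp9, chr6:87777820-87778119, plus strand: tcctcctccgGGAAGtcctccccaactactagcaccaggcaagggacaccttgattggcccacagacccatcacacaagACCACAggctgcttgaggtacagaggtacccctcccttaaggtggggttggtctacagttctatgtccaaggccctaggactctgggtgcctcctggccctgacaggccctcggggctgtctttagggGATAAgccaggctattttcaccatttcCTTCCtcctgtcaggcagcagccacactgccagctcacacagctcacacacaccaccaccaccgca
GGAAG was present in all 8 windows, and in 71.4% of the 32851 windows of all genes. GATAA was present in 3 of the 8 (Pf4, Gp1ba and Gp9) and in 25.4% of all windows. TGTGGT was present in 1 of the 8 (Gp9) and in 16.8% of all windows. The windows shown thus include all 3 with GATAA, and that of Gp1bb, not shown, held GGAAG but neither other motif. In Gp1ba the GATAA matches began 103 and 51 bases before the start its window uses, which lies 20 bases inside the annotated gene. In Gp9 the match began 43 bases before the inner start its window uses. A match is a run of letters and was not tested for binding.

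Between 16560649 and 17804039 estimated counts were assigned per library, and the 9 genes together took 0.00489% to 0.00895% of them. The smallest estimate among the members was 14 counts, for Gp1ba in C3, where counting error alone gives a 95% exact Poisson interval of 7.65 to 23.5 counts. Summed surfactant, club cell, alveolar type 1 and ciliated cell markers (6 genes) lay between 48954 and 125268 CPM in every library, as the lung label implies. The C libraries were tabulated with another gene set than the Hy and HE libraries (18713 and 17956 genes with a value, 17465 in common). That difference cannot be told apart from the group in any comparison with C, and it does not separate HE from Hy.

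Levels are CPM (counts scaled to library size, with TMM factors), given as mean ± SD over the libraries of a group, and per kilobase of annotated exon where genes are compared with each other. On the per-kilobase scale Pf4 was the most abundant, at 15.5 ± 3.83 CPM per kb over all 10 libraries (SD, n = 10). Ppbp followed at 7.91 ± 3.75 CPM per kb, and was below Pf4 in 10 of 10 libraries. Tubb1, Itgb3 and Gp9 stood level at 4.46 ± 1.43, 4.43 ± 1.11 and 4.42 ± 1.89 CPM per kb. Ppbp exceeded Tubb1 in 9 of 10 libraries, and their means differed by less than the SD of Ppbp. Gp1bb had 2.56 ± 1.92 CPM per kb and Itga2b 1.66 ± 0.461 CPM per kb, a difference within the SD of Gp1bb. Treml1 and Gp1ba were the scarcest, at 1.11 ± 0.386 and 0.631 ± 0.269 CPM per kb, and Treml1 exceeded Gp1ba in 10 of 10 libraries. This order is over all libraries pooled, and Gp1bb moved within it, from 0.840 CPM per kb in C, next to Treml1 at 0.866, to 4.19 CPM per kb in Hy.

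**Figure D1:**
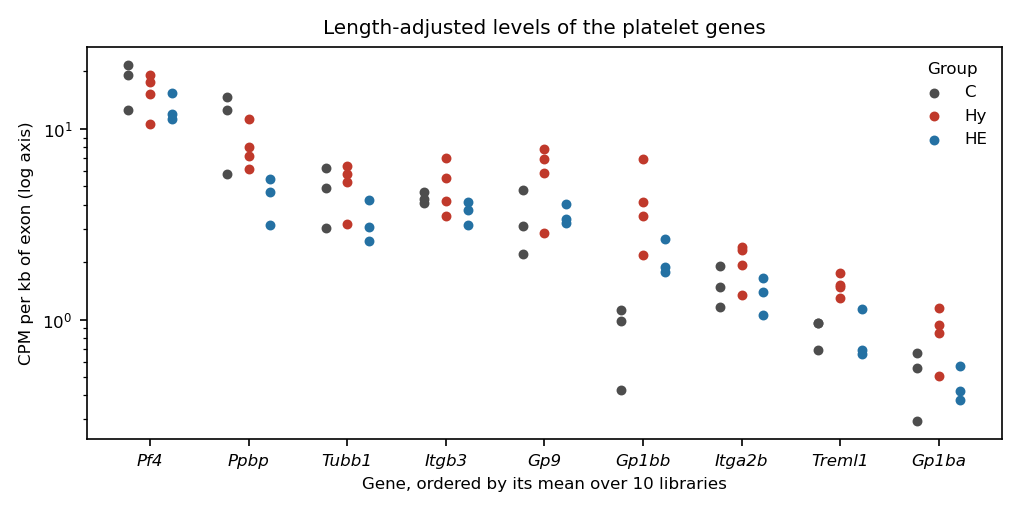
Levels of the 9 genes in CPM per kb of GENCODE exon (log axis), with 1 point per library and colours for C, Hy and HE. Pf4 and Ppbp lead, Tubb1, Itgb3 and Gp9 stand level at about 4.4 CPM per kb, and the Gp1bb points of C lie below all its other points.

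Transcripts of the subunits of one receptor were not equally abundant per kilobase of annotated exon. The ratios rest on the union of all annotated exons, 5.454 kb over 10 transcripts for Itga2b and 5.901 kb over 2 for Itgb3. Which transcripts the lungs used was not tested. Gp9 exceeded Gp1ba on the per-kilobase scale in every library, with C, Hy and HE ratios of 6.75 ± 1.01, 6.87 ± 1.88 and 8.03 ± 2.11 (SD, n = 3, 4 and 3). Itga2b, whose product pairs only with the Itgb3 chain, was below Itgb3 in every library, with C, Hy and HE ratios of 0.349 ± 0.102, 0.439 ± 0.215 and 0.368 ± 0.0315. The Itgb3 chain is also known to pair with the alpha V chain on endothelial cells and other cells of the vessel wall. Summed endothelial markers (7 genes) lay between 3389 and 4784 CPM in the 10 libraries, and their part in the Itgb3 level was not tested.

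Across the 7 Hy and HE libraries, which were tabulated alike, Itgb3 was also the member least like the others. Pearson correlations of log2 CPM between Itgb3 and the other 8 genes ran from -0.31 to 0.62, with a median of 0.17. The 28 pairs without Itgb3 had correlations from 0.11 to 0.94, with a median of 0.67. Gp1bb, Gp9, Itga2b and Tubb1 formed the closest set, with 6 pairs at 0.85 to 0.94. Pf4, a neighbour of Ppbp on chromosome 5 with 2371 bases between them, reached 0.50 at most with any member. These values describe 7 libraries that differ in group, and carry no test.

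The members stood highest in Hy2, Hy3 and Hy4. The mean of the 9 genes' log2 CPM, each taken relative to its own mean over the 10 libraries, was -0.15, 0.17 and -0.51 in C1 to C3. In Hy1 to Hy4 it was -0.04, 0.44, 0.43 and 0.56, and in HE1 to HE3 it was -0.25, -0.44 and -0.21. Hy3 and Hy4 each held the highest level of 3 members, C2 of 2 and Hy1 of 1, whereas no HE library was highest for any. HE2 was lowest of all libraries for 3 members, HE1 and C3 for 2 each, and C1 and Hy3 for 1 each. Within Hy, Hy1 was the lowest library for 6 of the 9 genes.

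Summed markers of other blood cells, in which single genes can weigh heavily, ordered the libraries otherwise than the members did. By group mean, the member sum was 72.6, 86.4 and 57.7 CPM in C, Hy and HE. The erythroid sum was 3802, 13398 and 3983 CPM and the neutrophil sum 259, 1374 and 320 CPM, each also highest in Hy. The macrophage sum (451, 523 and 416 CPM) and the proliferation sum (27.2, 29.0 and 26.7 CPM) had the members' order of groups. Summed erythroid markers (9 genes) were highest of the 10 libraries in Hy3 at 38531 CPM and lowest in Hy4 at 763 CPM. Hba-a1 alone gave 31188 and 559 CPM of these sums, and the member mean was high in both libraries. Summed neutrophil markers (11 genes) reached 1727 CPM in Hy2 and 3092 CPM in Hy4. The other 8 libraries had 170 to 415 CPM, Hy3 among them at 317 CPM. Ltf and Lcn2 weighed on the lower sums, with 134 and 128 CPM in C1. In 5 of the 11 genes every Hy library exceeded every C library, as in 17.5% of all tested genes, and in none the reverse held. S100a8, 1 of the 5, had 40.4 CPM in Hy1 and 20.5 CPM in Hy3 against 5.46 to 11.1 CPM in C. Summed macrophage markers (10 genes) ran from 365 to 769 CPM in Hy, 230 to 555 CPM in HE and 378 to 547 CPM in C. Summed basophil and mast cell markers (3 genes passed the filter) were 257 to 382 CPM in C, 114 to 198 CPM in Hy and 167 to 197 CPM in HE. Kit made up nearly all of this sum, with means of 315, 152 and 182 CPM in C, Hy and HE. Cpa3 averaged 0.882, 0.334 and 0.522 CPM and Cma1 1.91, 0.894 and 0.766 CPM, so the sum is close to a reading of Kit alone. In Hy against C, 9 of 9 erythroid genes had log2 fold changes above 0 (1 called, median 1.59) and 10 of 11 neutrophil genes did (6 called, median 2.44). Over all tested genes, 52.1% had log2 fold changes above 0 and 15.1% were called higher. Proliferation markers (6 genes) summed to between 14.9 and 44.7 CPM. The part of these cell types in the differences below was not tested.

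**Figure D2:**
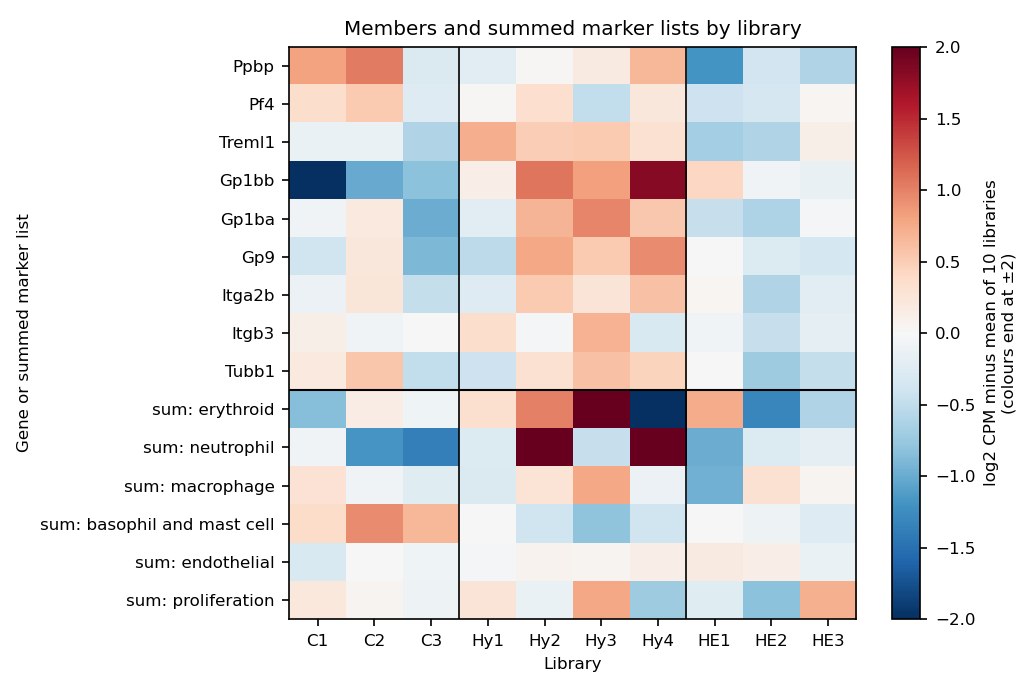
Log2 CPM of each member, and of 6 summed marker lists, in each library, as the difference from the row's mean over 10 libraries (colours end at ±2). Hy2 to Hy4 are mostly above 0 for the members and HE1 to HE3 mostly below, while the erythroid sum is extreme in opposite directions in Hy3 and Hy4 and the neutrophil sum is high in Hy2 and Hy4.

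Hy was set against C to ask how hypoxic lungs differ from controls, if the prefixes are read that way. Of the 9 genes, only Gp1bb passed edgeR's quasi-likelihood test (Benjamini-Hochberg adjusted p under 0.05), higher in Hy, where 15.1% of all tested genes were called higher and 26.1% in either direction. The share of 1 in 9 is thus near the background. Of the others, 6 had a positive and 2 a negative log2 fold change, and the median of the 9 was 0.40, beside 0.03 over all tested genes.

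Gp1bb (chromosome 16, positions 18620319 to 18622403, minus strand) had 0.892, 2.04 and 2.33 CPM in C1 to C3, 4.54, 8.67, 7.24 and 14.5 CPM in Hy1 to Hy4, and 5.52, 3.94 and 3.70 CPM in HE1 to HE3. Every Hy and HE library was thus above every C library, and Hy4 stood highest. Gp1bb rose in Hy, its C mean being 1.75 ± 0.760 CPM (SD, n = 3) and its Hy mean 8.75 ± 4.23 CPM (SD, n = 4), with a log2 fold change of 2.31 (SE 0.45, edgeR adjusted p = 0.00644). The call held without each single library. It was lost without Hy2 and Hy4 together, with a log2 fold change of 1.72 and an adjusted p of 0.0505, and over 19 alternatives the adjusted p ran from 6.91e-06 to 0.0505.

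The Gp1bb level depends on how reads were divided with its neighbour. Septin5, a septin gene on the same strand (positions 18621811 to 18629938), overlaps Gp1bb over 593 bases of the RefSeq gene models. The estimated counts of Gp1bb were fractional in all 10 libraries, for example 16.44 in C1 and 240.08 in Hy4, and so were those of Septin5, 252.56 and 481.92. Their sum was a whole number in 10 of 10 libraries (within 0.005), from 244 to 269 in C, 381 to 722 in Hy and 352 to 529 in HE. The other 8 members had whole counts in every library. Shared reads were therefore divided between these genes by estimate, and their sum is the firmer quantity.

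Septin5 itself, singled out after its values were seen, rose from 12.8 ± 1.12 CPM in C to 24.0 ± 5.46 CPM in Hy (log2 fold change 0.90, SE 0.22, adjusted p = 0.0154). Its call was lost without C2 or C3 (0.0633 in both) and without Hy2 and Hy4 together (0.132, the highest over its alternatives). Gp1bb took 5.95%, 14.3% and 16.1% of the summed level in C1 to C3, 16.2%, 24.6%, 30.4% and 33.2% in Hy1 to Hy4, and 18.1%, 18.0% and 19.0% in HE1 to HE3. The share of Hy1 thus lay next to that of C3. With the counts of both genes summed, an alternative added after seeing the data, the sum rose from 14.6 ± 0.398 CPM in C to 32.7 ± 8.74 CPM in Hy. The log2 fold change of the sum was 1.17 (adjusted p = 0.00623), against 2.31 for Gp1bb alone.

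**Figure D3:**
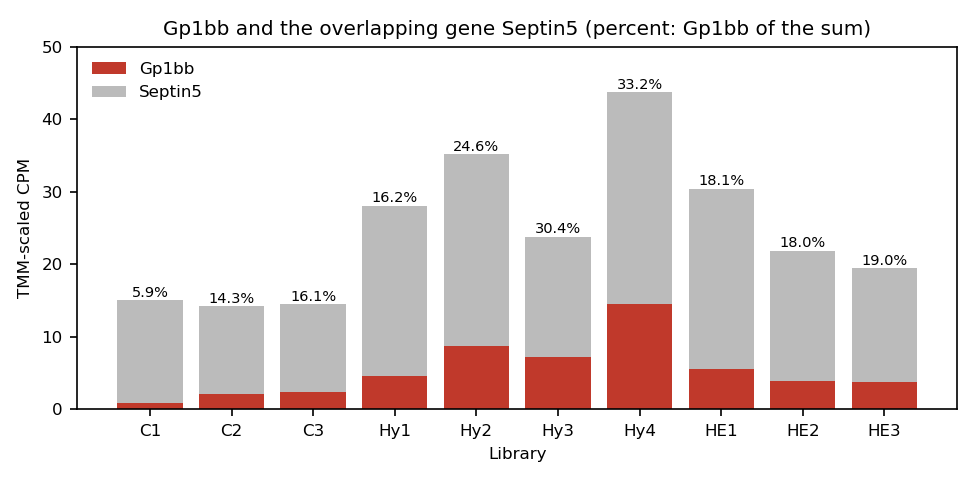
TMM-scaled CPM of Gp1bb and of Septin5, stacked for each library, with the percentage of the sum assigned to Gp1bb above each bar. The sums of C1 to C3 lie between 14.2 and 15.0 CPM and all others between 19.4 and 43.7 CPM, and the Gp1bb share is highest in Hy4 at 33.2%.

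Gp9 (chromosome 6, positions 87776131 to 87779786), the small subunit of the same receptor, had 2.73, 4.19 and 1.93 CPM in C1 to C3, 2.51, 6.13, 5.18 and 6.91 CPM in Hy1 to Hy4, and 3.56, 2.97 and 2.81 CPM in HE1 to HE3. Hy2 to Hy4 exceeded all other libraries, and Hy1 lay within C. Its log2 fold change in Hy against C was 0.81 (SE 0.37, adjusted p = 0.129), and without Hy1 the gene was called at 1.04 (adjusted p = 0.0354, the lowest over 19 alternatives, with 0.616 the highest). Gp1ba (chromosome 11, positions 70639102 to 70643986), the subunit that binds von Willebrand factor, had 1.51, 1.81 and 0.796 CPM in C1 to C3, 1.37, 2.54, 3.12 and 2.30 CPM in Hy1 to Hy4, and 1.15, 1.03 and 1.55 CPM in HE1 to HE3. The same libraries led, and Hy1 again lay within C. The log2 fold change of Gp1ba was 0.77 (SE 0.38, adjusted p = 0.161).

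Treml1 (chromosome 17, positions 48359916 to 48367176) was the other member whose Hy libraries all exceeded the C libraries, as did the groups of 17.5% of all tested genes in that direction. It had 1.34, 1.34 and 0.966 CPM in C1 to C3, 2.45, 2.06, 2.12 and 1.82 CPM in Hy1 to Hy4, and 0.920, 0.969 and 1.60 CPM in HE1 to HE3. Here Hy1, low for most members, was the highest of the 10 libraries. The log2 fold change of Treml1 in Hy against C was 0.80 (SE 0.31, adjusted p = 0.0827), and the gene was not called under any of 19 alternatives.

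The fibrinogen receptor chains did not pass. Itga2b (chromosome 11, positions 102453297 to 102469883) had 8.03, 10.4 and 6.31 CPM in C1 to C3, 7.35, 12.6, 10.5 and 13.1 CPM in Hy1 to Hy4, and 8.97, 5.75 and 7.56 CPM in HE1 to HE3, with a log2 fold change of 0.40 (SE 0.26, adjusted p = 0.267). Itgb3 (chromosome 11, positions 104608000 to 104670476) had 27.6, 24.2 and 25.3 CPM in C1 to C3, 32.7, 24.8, 41.3 and 20.6 CPM in Hy1 to Hy4, and 24.3, 18.5 and 22.2 CPM in HE1 to HE3 (log2 fold change 0.21, SE 0.22, adjusted p = 0.489). Hy4 held the highest Itga2b and the lowest Hy value of Itgb3, so the chains did not follow one another within Hy. Tubb1 (chromosome 2, positions 174450595 to 174458380) had 6.86, 8.80 and 4.26 CPM in C1 to C3, 4.48, 7.37, 8.92 and 8.12 CPM in Hy1 to Hy4, and 5.98, 3.63 and 4.30 CPM in HE1 to HE3. Its groups overlapped throughout, and its log2 fold change in Hy against C was 0.12 (SE 0.31, adjusted p = 0.798).

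The granule chemokines went the other way from the surface receptors in sign, without passing. Ppbp (chromosome 5, positions 90768518 to 90770063) had 13.5, 16.0 and 6.31 CPM in C1 to C3, 6.63, 7.84, 8.74 and 12.2 CPM in Hy1 to Hy4, and 3.39, 5.94 and 5.08 CPM in HE1 to HE3. C1 and C2 were the highest of all libraries, and C3 lay below every Hy library. Pf4 (chromosome 5, positions 90772435 to 90773383) had 13.8, 15.6 and 9.04 CPM in C1 to C3, 11.0, 13.7, 7.68 and 12.7 CPM in Hy1 to Hy4, and 8.11, 8.60 and 11.1 CPM in HE1 to HE3. The 3 groups of Pf4 overlapped. In Hy against C the log2 fold changes were -0.43 for Ppbp (SE 0.33, adjusted p = 0.357) and -0.18 for Pf4 (SE 0.25, adjusted p = 0.608).

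**Figure D4:**
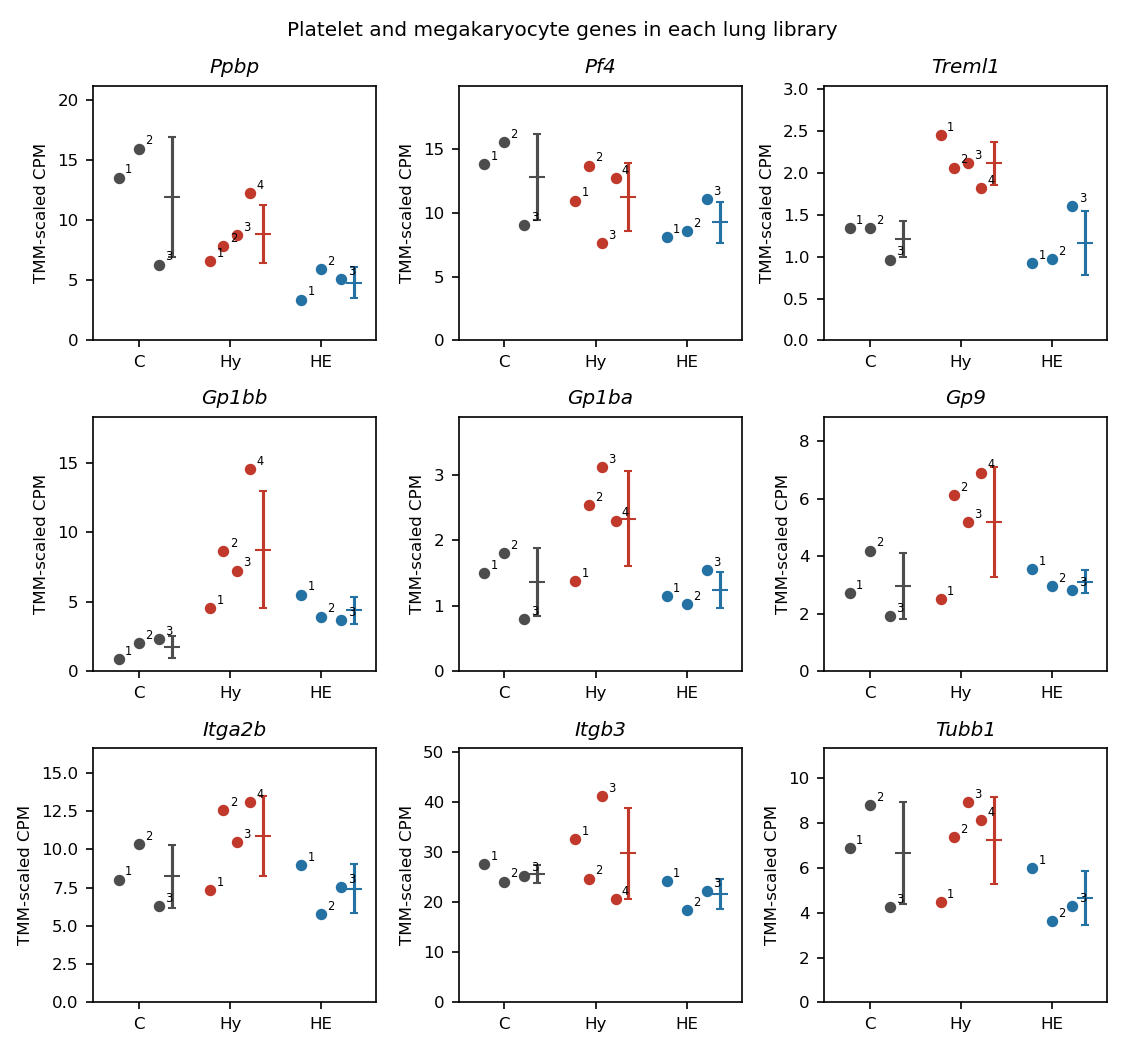
TMM-scaled CPM of each member in every library, with 1 panel per gene, points numbered by replicate, and mean ± SD bars for C (n = 3), Hy (n = 4) and HE (n = 3). Every HE point of Ppbp and Treml1 lies below every Hy point, and every C point of Gp1bb lies below all Hy and HE points.

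HE was set against Hy to ask how exercised hypoxic lungs differ from hypoxic ones under the same reading, and no C library stands on either side. All 9 genes had lower means in HE, with log2 fold changes from -0.995 to -0.28 and a median of -0.73, beside -0.01 over all tested genes. In the same comparison 9 of 9 erythroid marker genes were below 0, with a median of -1.50, and 10 of 11 neutrophil marker genes were below 0, with a median of -2.52 and 10 genes lower at an unadjusted p under 0.05. Both medians were larger in size than that of the members, and their part in the members' values was not tested. None of the 9 members passed, and edgeR called 0 of 14766 genes in this comparison, with 734 genes at an unadjusted p under 0.05 (1.63% of all genes higher in HE). DESeq2 called 48 genes and limma-voom 0 over the whole table, none of them a member. At an unadjusted p under 0.05, 4 of the 9 were lower in HE by edgeR (Ppbp, Treml1, Gp1ba and Gp1bb), 5 by DESeq2 and 1 by limma-voom, where edgeR put 3.34% of all tested genes lower and 4.97% either way at that level.

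The sign was negative for all 9 genes under each of the 20 alternatives, but the count at an unadjusted p under 0.05 moved with single libraries. It was 4 without C2 or C3, 3 without C1, Hy2, Hy3 or HE1, 2 without Hy4 or HE3, 1 without HE2 and 7 without Hy1. With the counts of Gp1bb and Septin5 summed it was 3, and with the replicate number as a block it was 2. Without Hy2 and Hy4 together, the libraries rich in neutrophil markers, 2 genes were below that level and the median was -0.53. That the platelet genes as a set are lower in HE was known when they were chosen, so these counts are no independent support for it.

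Ppbp and Treml1 were the members whose HE libraries all lay below the Hy libraries, 2 of 9, beside 2.26% of all tested genes. This count too is no independent support, because the genes were chosen with the lower values in HE known. Ppbp averaged 8.86 ± 2.41 CPM in Hy and 4.80 ± 1.29 CPM in HE (log2 fold change -0.88, SE 0.34, adjusted p = 0.897). Treml1 averaged 2.11 ± 0.260 CPM in Hy and 1.16 ± 0.379 CPM in HE (log2 fold change -0.85, SE 0.31, adjusted p = 0.826). The HE mean of Treml1 was close to its C mean of 1.21 ± 0.215 CPM, whereas the HE mean of Ppbp was below its C mean of 11.9 ± 5.02 CPM.

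In the von Willebrand factor receptor, the log2 fold changes in HE against Hy were -0.995 for Gp1bb (SE 0.41), -0.90 for Gp1ba (SE 0.39) and -0.73 for Gp9 (SE 0.37), with edgeR adjusted p = 0.95, 0.967 and 1.00. Gp1bb summed with Septin5 gave -0.45, so the size of this difference too depends on the division of shared reads. The remaining members had smaller values, namely -0.64 for Tubb1 (SE 0.32), -0.55 for Itga2b (SE 0.26), -0.46 for Itgb3 (SE 0.22) and -0.28 for Pf4 (SE 0.25). Their edgeR adjusted p-values were all 1.00. For each of these genes at least 1 Hy library lay below the highest HE value, namely Hy4 for Itgb3, Hy1 and Hy3 for Pf4, and Hy1 for the others, with Hy1 below all HE libraries for Gp9 and Hy3 for Pf4.

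**Figure D5:**
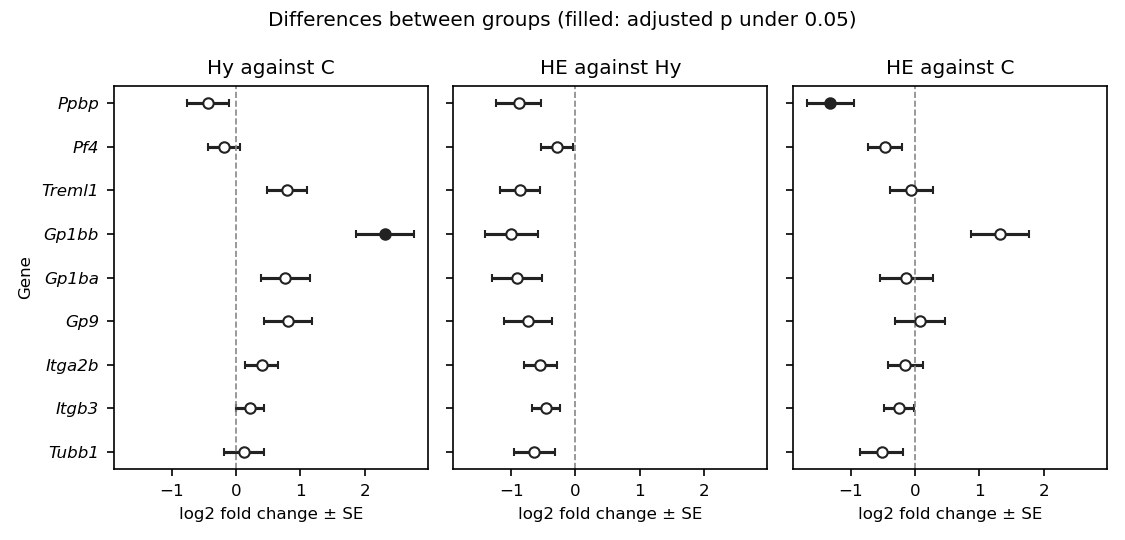
Log2 fold change ± SE of each member in Hy against C, HE against Hy and HE against C, with filled points for an edgeR adjusted p under 0.05. Gp1bb in Hy against C (2.31) and Ppbp in HE against C (-1.31) are filled, and all 9 points lie below 0 in HE against Hy.

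HE was finally set against C, a comparison that shares the C libraries with the first and the HE libraries with the second. Of the 9 genes, 1 passed, Ppbp, which was lower in HE, where 8.66% of all tested genes were called lower and 20.4% in either direction. Ppbp fell in HE, its C mean being 11.9 ± 5.02 CPM (SD, n = 3) and its HE mean 4.80 ± 1.29 CPM (SD, n = 3), with a log2 fold change of -1.31 (SE 0.36, edgeR adjusted p = 0.0311) and no overlap between the groups. Such groups, all of HE below all of C, were found for 25.0% of all tested genes, and 26.6% had all of HE above all of C, as Gp1bb did. The lowest C value, 6.31 CPM in C3, was next to the highest HE value, 5.94 CPM in HE2. The call was lost without C1 (adjusted p = 0.0895), C2 (0.111), HE1 (0.103), HE2 (0.0637) or HE3 (0.0736) and with limma-voom (0.0539), and it ran from 0.00406 to 0.111 over 19 alternatives.

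The median over the 9 genes in HE against C was -0.15, beside 0.02 over all tested genes. Gp1bb had a log2 fold change of 1.32 (SE 0.46, adjusted p = 0.0656), and summed with Septin5 it had 0.71 (adjusted p = 0.0538). It was called with DESeq2 (0.0301, the lowest over its alternatives, with 0.179 the highest) and with only the groups compared (0.0372), and also without Hy1 (0.0443) or Hy4 (0.0413). Tubb1, Pf4 and Itgb3 had -0.52, -0.47 and -0.25, and Itga2b, Gp1ba, Treml1 and Gp9 lay between -0.15 and 0.08, with adjusted p-values from 0.228 to 0.919 for these 7 genes. Ppbp relative to Pf4 on the per-kilobase scale was 0.599 ± 0.117 in C, 0.545 ± 0.185 in Hy and 0.348 ± 0.0978 in HE, and its HE values (0.279 to 0.459) lay below its C values (0.465 to 0.681).

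Further platelet and megakaryocyte genes, listed by function with earlier results of these data known, did not move as one set. In Hy against C, 2 of 16 surface receptor and adhesion genes rose and 1 fell, 5 of 18 granule, cytoskeleton and signalling genes rose and 1 fell, and 3 of 11 tested megakaryocyte regulators rose and 0 fell. The list medians were -0.21, 0.31 and 0.22, beside 15.1% called higher and 11.0% called lower over the whole table. In HE against C, 1, 0 and 1 genes of the lists rose and 1, 2 and 1 fell, where 11.7% of all genes were called higher and 8.66% lower. Many genes of these lists are also expressed in leukocytes or endothelium, and 0 genes of the 3 lists were called in HE against Hy by edgeR. There 1, 7 and 1 genes were at an unadjusted edgeR p under 0.05, beside 3.34% of all tested genes lower and 1.63% higher. Of these list genes, the thrombin receptor gene F2rl3, singled out after its values were seen, was higher in HE, and all others were lower.

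Gp5, which completes the von Willebrand factor receptor, rose from 2.09 ± 0.725 CPM in C to 4.03 ± 0.682 CPM in Hy (log2 fold change 0.95, SE 0.30, adjusted p = 0.0431) and averaged 2.605 ± 0.443 CPM in HE. All Gp5 values in Hy were above those of C and of HE. Its call was lost in 12 of 19 alternatives, among them those without C1, C2, C3, Hy2, Hy4, HE1, HE2 or HE3 (0.0943, 0.0541, 0.146, 0.088, 0.0929, 0.058, 0.053 and 0.061) and with the replicate number as a block (0.132), within a range of 0.0181 to 0.235. Gp6, the collagen receptor, did not pass, with 1.10 ± 0.358, 0.922 ± 0.179 and 0.608 ± 0.264 CPM in C, Hy and HE. Itga2, a chain of another collagen receptor that epithelium also makes, rose in Hy (log2 fold change 1.48, adjusted p = 0.00569), and Cd226, an adhesion receptor shared with lymphocytes, fell (-0.91, adjusted p = 0.0129). Itga2 kept its call in 19 of 19 alternatives, and Cd226 lost it without C2 (0.0574), with the block (0.0685) and without Hy2 and Hy4 together (0.0935, the highest over its alternatives, with 0.00108 the lowest).

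Bin2 and Fermt3, which act in the cytoskeleton and in integrin activation of platelets and leukocytes, rose in Hy against C, with log2 fold changes of 1.46 and 0.74 (edgeR adjusted p = 0.00213 and 0.00667). Nbeal2, needed for alpha granules, Vwf, made by megakaryocytes and endothelium, and Stx11, a granule release gene, rose likewise, with 0.95, 0.66 and 0.58 (adjusted p = 0.00876, 0.043 and 0.0393). Rab27b, a dense granule gene, fell by 1.07 (adjusted p = 0.0142). Bin2 kept its call in 19 of 19 alternatives, and Fermt3 and Nbeal2 lost theirs only without Hy2 and Hy4 together (0.0639 and 0.0666, the highest over their alternatives, with 0.000119 and 0.000191 the lowest). For Rab27b the adjusted p was 0.0512 without C1, 0.0519 without C3 and 0.0531 without Hy2 and Hy4 together, the highest, and 0.000674 at the lowest. Vwf lost its call without C1, C2, C3, Hy2, Hy3 or HE3 (0.123, 0.0523, 0.159, 0.0986, 0.0578 and 0.0611), without the low-count filter (0.0508), with only the groups compared (0.0578) and without Hy2 and Hy4 (0.123), within 0.0115 to 0.159. Stx11 lost its call without C1, C2, C3, Hy1, Hy4, HE1 or HE3 (0.0759, 0.0813, 0.145, 0.062, 0.0857, 0.0546 and 0.0519) with the block (0.0821), with only the groups compared (0.0673) and without Hy2 and Hy4 (0.146), within 0.0157 to 0.146.

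Among the regulators, Nfe2, a transcription factor of platelet release that neutrophil precursors also express, rose from 3.75 ± 0.600 CPM in C to 13.05 ± 7.03 CPM in Hy (log2 fold change 1.80, SE 0.41, adjusted p = 0.0125). Its levels were 18.9 and 19.4 CPM in Hy2 and Hy4, the libraries with high neutrophil markers, and 6.69 and 7.24 CPM in Hy1 and Hy3. The call was lost without C3 (0.0559) or without Hy2 and Hy4 both (0.0772, the highest over its alternatives, with 0.000212 the lowest). Ldb1 and Zfpm1, partners of GATA factors, rose too, with 1.01 and 0.94 (adjusted p = 0.00408 and 0.00866), and Zfpm1 lost its call without Hy2 and Hy4 together (0.0615, the highest over its alternatives, with 0.000198 the lowest). Gata1, the GATA factor of megakaryocytes and red cell precursors, was scarce, at 0.535 ± 0.347, 0.842 ± 0.241 and 0.863 ± 0.398 CPM in C, Hy and HE. Gata1 did not pass in any comparison. Gfi1b did not pass the filter on low counts.

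In HE against C, Itga2 and Ldb1 rose (log2 fold change 1.35 and 0.94, edgeR adjusted p = 0.0122 and 0.00868), whereas Cd226, Plek, Rab27b and Fli1 fell by 0.97, 1.16, 1.06 and 1.01 on that scale (adjusted p = 0.0171, 0.0167, 0.0253 and 0.0201). Plek encodes pleckstrin, a major kinase substrate of platelets that other leukocytes also express, and Fli1 an ETS factor of megakaryocytes and endothelium. Ldb1 kept its call in 19 of 19 alternatives, and Itga2 lost it without C3 (0.0514). Cd226 lost its call without C1, C2, C3 or HE2 (0.0549, 0.0661, 0.0514 and 0.0713) and Plek without C1, C3, HE1 or HE2 (0.0525, 0.0554, 0.0576 and 0.0678). Rab27b lost its call without C1, C2, C3, HE1 or HE2 (0.0761, 0.0584, 0.0774, 0.0837 and 0.0923) and Fli1 without C2, C3 or HE2 (0.0585, 0.0808 and 0.0807). The lowest adjusted p over the alternatives was 0.000254 for Itga2, 0.00146 for Cd226, 0.000664 for Plek, 0.00233 for Rab27b and 0.00128 for Fli1.

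Genes with a course like that of the members were ranked by the Pearson correlation of log2 CPM with the member mean over the 7 Hy and HE libraries, among 12916 genes with at least 2 CPM on average and a proper symbol. The first 8 were Sh3bp2, Gp5, Slc16a3, Cp, Col7a1, Ctse, Plek and Cd300ld, with correlations from 0.97 to 0.94. Gp5 and Plek thus came second and seventh, and both stood in the platelet lists. Over all 10 libraries the correlation was 0.89 for Gp5 and 0.44 for Plek, and 0.91 for Cp, the plasma protein ceruloplasmin. The points share groups and libraries, and the ranking is a description of 7 libraries.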

How the data were processed

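RNA was extracted from powdered lung with Trizol, poly(A) RNA was selected with oligo(dT) beads and cDNA was primed with random hexamers, per the labels' protocols, which do not state whether strand was kept. The deposited values are estimated counts per Entrez gene, not normalised. HISAT2 2.0.4, Bowtie2 2.2.5, RSEM 1.2.12, DESeq 1.4.5 and GRCm38.p6 are named, with no roles, per the submitters' processing notes, and which annotation release was used is not given in the sources used here. Estimates were made whole by rounding, and genes valued in both gene sets (17465) were kept. One fit held all 3 groups, in edgeR 4.0.16 in R 4.3.3 (filterByExpr, TMM factors, robust quasi-likelihood dispersion, 7 residual degrees of freedom, Benjamini-Hochberg adjustment over 14766 genes). An adjusted p with no tool beside it is edgeR's. Gp1bb summed with Septin5 was an alternative chosen after seeing the data. The fit was checked on simulated data. Symbols and positions are RefSeq's, and exon lengths are the union of GENCODE M21 exons. Intervals cover counting error only.

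The members and lists were chosen with earlier results of these data known. Named genes were all members, list genes that passed (at most 6 per list and comparison), and Gp5, Gp6, Gata1, Nfe2 and Vwf; 1 other gene of this rule is not reported here. The alternatives were DESeq2 1.42.0, limma-voom (limma 3.58.1), RLE factors, no low-count filter, at least 1 CPM in 3 libraries, a fit of the compared groups alone, a block for the replicate number, each library left out, Hy2 and Hy4 left out, and all genes valued in Hy and HE without C. Libraries of C and Hy with the same number deviated together from their group means (correlations 0.12, 0.25 and 0.13), which met the criterion of 0.1 for pairing, although no label states a pairing and C1 correlated more with Hy4 (0.45). Libraries of HE did not meet it. No pair of libraries within a group agreed within counting error.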

Additional observations from a re-analysis of the deposited data

How the results depend on the processing

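With the replicate number as a block, 1745 genes were called in Hy against C in place of 3850, and 0 and 2669 in HE against Hy and HE against C. In the block fit Gp1bb passed also in HE against C (adjusted p = 0.0494), and Gp5, Cd226 and Stx11 did not pass in Hy against C, with no other change of call among the named genes. Same-numbered libraries correlated at -0.04 to 0.06 between HE and Hy and at -0.26 to 0.19 between HE and C. Without Hy2 and Hy4 the calls were 1070 in Hy against C and 1 in HE against Hy. DESeq2 called 48 genes in HE against Hy, and with only HE and C in the fit 5408 genes were called in place of 3013. Leaving out 1 library gave 1681 (C2) to 5973 (Hy3) calls in Hy against C, 0 to 6 (Hy3) in HE against Hy, and 1014 (C3) to 4712 (Hy3) in HE against C.

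Signs turned only for values that did not pass. The log2 fold change of Tubb1 in Hy against C became -0.0018 without Hy2 and Hy4, and ran from -0.12 to 0.38 with 1 library left out. With 1 library left out, Gp6 in Hy against C ran from -0.41 to 0.033, Gata1 in HE against Hy from -0.41 to 0.24, and in HE against C Treml1 ran from -0.36 to 0.083, Gp1ba from -0.41 to 0.11, Gp9 from -0.15 to 0.42 and Itga2b from -0.31 to 0.052. Gata1 in HE against Hy was -0.017 with limma-voom. The cause was not tested. Low counts limit Treml1, Gp1ba and, in C, Gp1bb, where the smallest counts were 16, 14 and 16.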
